A study of Bos taurus and Sus scrofa with 10 samples.

Results

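S100A14, S100A10, S100A11, S100A6 and the annexins ANXA1 to ANXA6 are genes of 2 families of mostly calcium-binding proteins. They were followed here in bovine (Bos taurus) and porcine (Sus scrofa) oocytes and embryos up to the blastocyst. The 10 symbols were chosen by their high RPM values at the blastocyst in earlier results of these libraries, and each was found as the row of a species' table whose gene name equals the symbol. In cow 9 of the 10 symbols were analysed, out of 22845 rows, and in pig 9 of the 10, out of 21867 rows. S100A6 was analysed in pig only and ANXA3 in cow only, which left 8 genes in both species and 18 gene rows in all. Each symbol had a single row in its table, and no row of these genes overlapped another row. Because the genes were picked for their blastocyst values, those values are given as a description, with no test.

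Annexins bind negatively charged phospholipids when calcium is present, and they link membranes to one another and to the cytoskeleton during exocytosis, endocytosis and the repair of torn plasma membrane. S100 proteins are small dimers with paired EF-hand motifs, most of which change shape on binding calcium and then grip a partner protein. The families meet in defined complexes, of which S100A10 with ANXA2 and S100A11 with ANXA1 are the best known. Most S100A genes lie together in the region that also holds the genes of the cornified skin envelope, and many are marked by high expression in epithelia. The blastocyst is the first embryonic stage with an epithelium, the trophectoderm, whose polarised cells surround the cavity.

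In each species there were 5 groups, from the oocyte through 2-4 cell and 8-16 cell embryos to morula and blastocyst, with 1 library each and 10 libraries in all. Species and stage are all that the labels give. Breed, age of the animals, in vivo or in vitro origin, and the number of oocytes or embryos in a library are not given in the sources used here. Stages were compared without replicates, no p-value is printed, and each interval covers counting error only, because amplified reads without molecular identifiers are not independent molecules. In whole-embryo RNA, fewer cells that express a gene and less RNA of it per cell cannot be told apart.

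Levels are reads per 1000000 reads of a library (RPM), which compare a gene between stages but do not rank genes of different length. The libraries held between 3002751 reads (pig morula) and 14182046 reads (cow blastocyst). The share of reads on mitochondrial genes ran from 2.74% to 30.2% in cow and from 6.06% to 18.6% in pig, and it was highest at the blastocyst in both species. The limit that 0 reads allows, 3 reads, was between 0.212 and 0.999 RPM. Brackets after blastocyst levels hold 95% Wilson intervals. Changes are differences of log2(RPM + 1), later minus earlier stage, computed where at least 1 of both libraries had 1 RPM or more, and a gene is called higher or lower at a difference of 2, which is 4-fold on that scale. Low genes appear to change less on this scale than they did, so ratios of reads with their 95% counting intervals stand beside it. A ratio against 0 reads is a lower bound set at the 3-read limit of that library.

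In each species all 9 genes had their highest level at the blastocyst. From morula to blastocyst 7 of 9 were called higher in cow, where 11.9% of all genes compared were, and 9 of 9 in pig, where 13.8% were. From oocyte to blastocyst 8 of 9 were called higher in cow against 21.8% of all genes, and 8 of 9 in pig against 26.0%. None was called lower, against 11.5% of all genes in cow and 13.8% in pig from the morula, and 18.4% and 19.2% from the oocyte. The genes were chosen for this pattern, so the counts describe the choice and nothing is read from their distance to the background. The median difference from morula to blastocyst was 4.39 over the cow genes and 4.55 over the pig genes, against -0.11 over all genes in each species. With genes at 0 reads set to their 3-read limit these medians were 3.96 and 4.35. What differed among the genes was the stage at which reads first appeared, the size of the last step and the match between the species, and these are described by gene below.

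**Figure D1:**
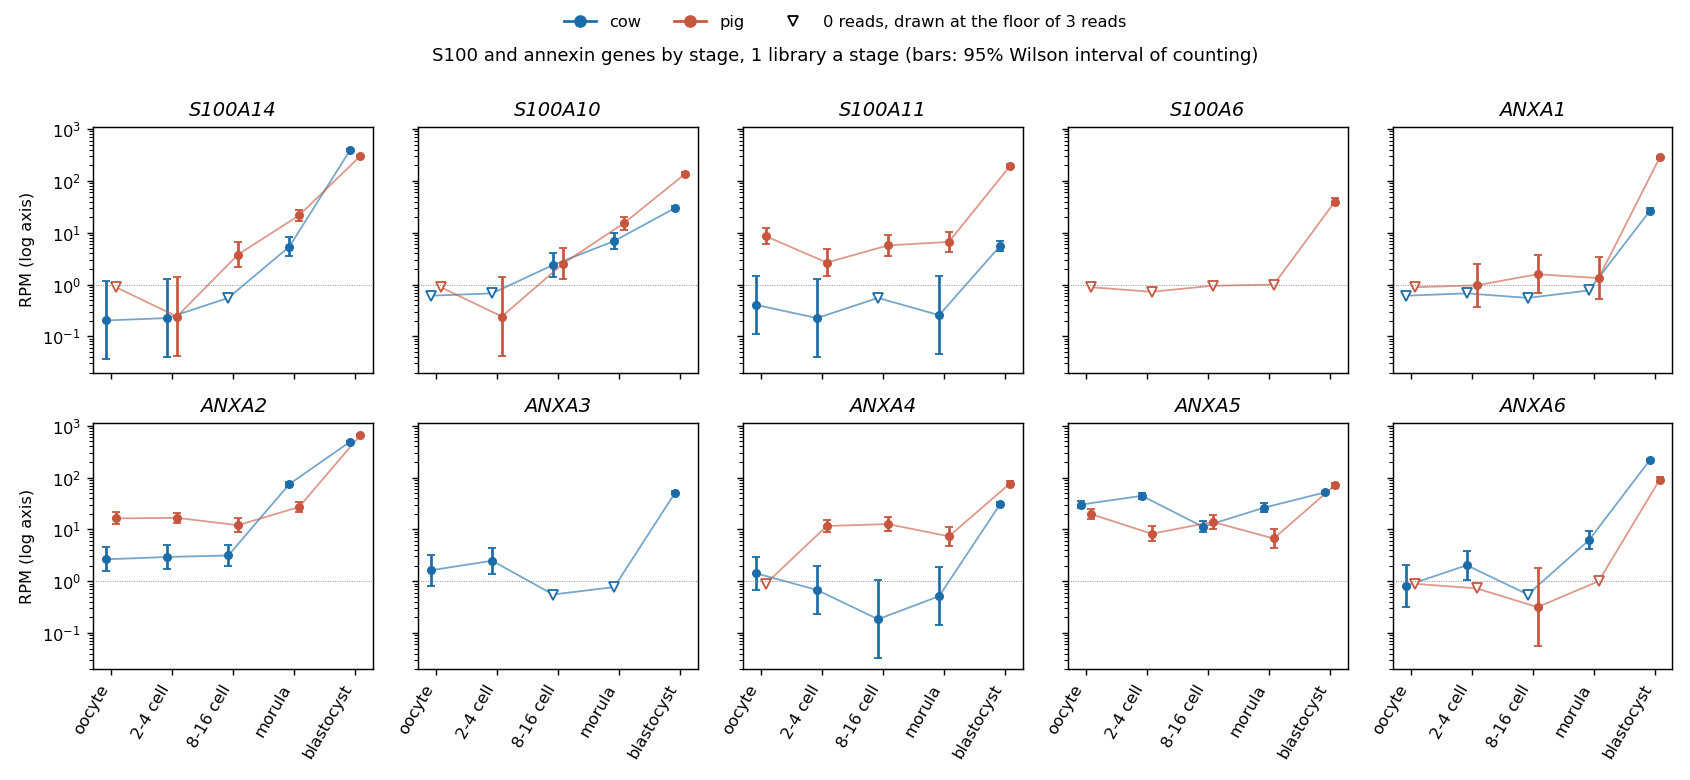
RPM on a log axis at each of the 5 stages for each gene, in cow and in pig, with 1 library per point, bars for 95% Wilson counting intervals and open triangles for 0 reads drawn at the 3-read limit. The blastocyst point is the highest of every line; ANXA5 is the flattest, between 11.2 and 51.8 RPM in cow, while S100A14 spans from 0 reads to 401 RPM there.

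S100A10 and ANXA2 form a heterotetramer at the inner face of the plasma membrane, in which the S100A10 dimer, unable to bind calcium, bridges a pair of annexin molecules. S100A10 (cow chromosome 3, 18799612 to 18810545 in UMD3.1) had 0 reads in the cow oocyte and 2-4 cell libraries, then 2.39 RPM in the 8-16 cell embryo, 6.92 RPM in the morula and 30.2 RPM (27.5 to 33.2) in the blastocyst. The first reads thus came at the 8-16 cell stage, and each later library was higher than the one before it, with counting intervals that lay apart. The step from morula to blastocyst was 4.36-fold (2.95 to 6.69), a difference of 1.98 that missed the call of 2. It passed that call under 4 of the 7 alternatives tried, with 2.00 to 2.31. From oocyte to blastocyst the level was at least 49.6-fold higher, a difference of 4.72.

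In pig, S100A10 (chromosome 4, 97261199 to 97275019 in Sscrofa11.1) had 0 reads in the oocyte, 1 read (0.242 RPM) in the 2-4 cell embryo, 2.53 RPM in the 8-16 cell embryo, 15.3 RPM in the morula and 136 RPM (125 to 149) in the blastocyst. As in cow, levels above 3 reads began at the 8-16 cell stage. The 8-16 cell to morula step was 6.06-fold (2.83 to 14.9) and the morula to blastocyst step 8.91-fold (6.58 to 12.3), differences of 2.21 and 3.07. The blastocyst was at least 154-fold above the oocyte.

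ANXA2 (chromosome 10, 49860062 to 49904536) had its largest rise in cow before the blastocyst. Its cow levels were 2.64, 2.93 and 3.13 RPM from the oocyte to the 8-16 cell embryo, 74.6 RPM in the morula and 496 RPM (485 to 508) in the blastocyst. The first 3 libraries did not differ beyond counting error. The step into the morula was 23.8-fold (14.6 to 41.5), a difference of 4.19, and the step into the blastocyst 6.65-fold (5.91 to 7.50), a difference of 2.72. The whole interval from oocyte to blastocyst was 188-fold (110 to 353).

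Pig ANXA2 (chromosome 1, 111588306 to 111635100) was present at every stage, with 16.3, 16.7 and 12.002 RPM in the first 3 libraries, 26.98 RPM in the morula and 656 RPM (630 to 682) in the blastocyst. Here the early libraries were also alike within counting error, but the large step was the last one. It came to 24.3-fold (19.5 to 30.7), a difference of 4.55, after a difference of 1.11 into the morula. The larger step of ANXA2 thus led to the morula in cow and to the blastocyst in pig. The cow minus pig difference was 3.09 (counting interval 1.66 to 4.46) into the morula and -1.84 (-2.39 to -1.28) into the blastocyst, with no replicate test of either.

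The steps of S100A10 and ANXA2 differed in size in part. Into the cow morula S100A10 rose 2.89-fold (1.44 to 6.11) and ANXA2 23.8-fold (14.6 to 41.5). Both pig genes had their largest step into the blastocyst, 8.91-fold (6.58 to 12.3) and 24.3-fold (19.5 to 30.7). Their intervals overlapped into the cow blastocyst and into the pig morula. ANXA2 had reads in the cow oocyte and 2-4 cell libraries, where S100A10 had 0. In the pig oocyte ANXA2 had 16.3 RPM, again beside 0 reads of S100A10. RPM does not rank genes of different length, so these levels do not show different changes. AHNAK, a very large scaffold protein that binds this complex, had 0.609, 0.451, 24.1, 109 and 997 RPM over the 5 cow stages. Its rise began at the 8-16 cell stage, as did that of S100A10, and its difference from oocyte to blastocyst was 9.28.

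S100A11 binds the amino-terminal tail of ANXA1, a phospholipase-inhibiting and anti-inflammatory annexin. In cow S100A11 (chromosome 3, 18768796 to 18770416) had 2 reads in the oocyte (0.406 RPM), 1 in the 2-4 cell embryo (0.225 RPM), 0 at the 8-16 cell stage, 1 in the morula (0.256 RPM) and 5.57 RPM (4.47 to 6.94) in the blastocyst. Only the blastocyst library exceeded 3 reads. The last step was 21.7-fold with a wide interval (3.79 to 869), and the difference was 2.39, which became 1.01, below the call, with a pseudocount of 5 RPM. In pig S100A11 (chromosome 4, 97233428 to 97241989) was found at every stage, with 8.59, 2.66, 5.69, 6.66 and 194 RPM (180 to 208). The 4 libraries before the blastocyst lay between 2.66 and 8.59 RPM, and the last step was 29.1-fold (18.7 to 47.9), a difference of 4.67.

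ANXA1 (cow chromosome 8, 49624473 to 49642916) had 0 reads in all 4 cow libraries before the blastocyst, where it had 26.6 RPM (24.0 to 29.4). It was the only one of the 9 cow genes with this pattern, and the blastocyst was at least 34.6-fold above the morula and at least 43.7-fold above the oocyte. In pig ANXA1 (chromosome 1, 226413516 to 226431961) had 0 reads in the oocyte, then 0.967, 1.58 and 1.33 RPM up to the morula and 284 RPM (267 to 301) in the blastocyst. The 3 middle libraries overlapped in their intervals. The last step was 213-fold (82.9 to 783), a difference of 6.93. As the cow fold is a lower bound, the size of the step was not compared between the species.

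S100A14, a member of the S100 family found mainly in epithelia, had a difference from oocyte to blastocyst of 8.38 in cow and 7.90 in pig. In cow (chromosome 3, 16827337 to 16829392) it had 1 read in the oocyte (0.203 RPM), 1 in the 2-4 cell embryo (0.225 RPM), 0 in the 8-16 cell embryo, 5.39 RPM in the morula and 401 RPM (391 to 411) in the blastocyst. In these libraries its rise was confined to the last 2 steps, at least 9.75-fold into the morula and 74.4-fold (48.6 to 120) into the blastocyst.

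In pig S100A14 (chromosome 4, 96027639 to 96029878) had 0 reads in the oocyte, 1 read in the 2-4 cell embryo (0.242 RPM), 3.79 RPM in the 8-16 cell embryo, 21.6 RPM in the morula and 301 RPM (284 to 319) in the blastocyst. Reads above 3 were reached one stage earlier than in cow, and the rise was spread over more steps. The step into the morula was 5.71-fold (3.06 to 11.6) and the last step 13.9-fold (10.8 to 18.2). For the last step the cow minus pig difference was 2.24 (counting interval 1.25 to 3.19), with no replicate test.

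S100A6, or calcyclin, binds the annexin ANXA11 and the ubiquitin ligase adaptor CACYBP. It was analysed in pig only (chromosome 4, 96098189 to 96100128), with 0 reads in all 4 libraries before the blastocyst and 39.7 RPM (33.8 to 46.6) in the blastocyst. That is at least 39.7-fold above the morula and at least 44.7-fold above the oocyte.

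ANXA6 is the largest annexin, with a doubled core, and it recruits the Ras GTPase-activating protein RASA1 to membranes. In cow (chromosome 7, 64359563 to 64406299) it had 0.811 RPM in the oocyte, 2.03 RPM in the 2-4 cell embryo, 0 reads in the 8-16 cell embryo, 6.15 RPM in the morula and 219 RPM (211 to 227) in the blastocyst. A low level in the oocyte and 2-4 cell embryo was followed by a library with no reads and then by a new rise. The 2-4 to 8-16 cell step was at least 3.67-fold lower, the next at least 11.15-fold higher and the last 35.6-fold higher (23.9 to 55.6). In pig ANXA6 (chromosome 16, 71867413 to 71913379) had 0 reads in the oocyte, 2-4 cell and morula libraries, 1 read at the 8-16 cell stage (0.316 RPM) and 91.2 RPM (81.97 to 101) in the blastocyst. The pig rise was therefore seen in the last step alone, at least 91.2-fold.

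ANXA3, a smaller annexin first known from neutrophil granules and placenta, was analysed in cow only (chromosome 6, 95065256 to 95136945). It had 1.62 RPM in the oocyte, 2.48 RPM in the 2-4 cell embryo, 0 reads at the 8-16 cell and morula stages and 51.4 RPM (47.8 to 55.3) in the blastocyst. Like ANXA6, it was present at first, at least 4.49-fold lower at the 8-16 cell stage, and present again later. The last step was at least 66.8-fold higher, a difference of 5.41, which exceeded the 4.32 between oocyte and blastocyst.

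ANXA4, an annexin of secretory epithelia, followed different courses in the 2 species before the blastocyst. In cow (chromosome 11, 68070487 to 68144492) it went from 1.42 RPM in the oocyte to 3 reads in the 2-4 cell embryo (0.676 RPM), 1 read at the 8-16 cell stage (0.184 RPM), 2 reads in the morula (0.513 RPM) and 30.7 RPM (27.99 to 33.8) in the blastocyst. In pig (chromosome 3, 72620712 to 72694552) it had 0 reads in the oocyte, then 11.6, 12.6 and 7.33 RPM, and 76.7 RPM (68.3 to 86.1) in the blastocyst. The pig level thus appeared between the oocyte and the 2-4 cell embryo, at least 13.1-fold, and neighbours in the order of the next 3 levels (12.6, 11.6 and 7.33 RPM) overlapped in their intervals. This was the only one of the 4 genes compared there to be called higher at that step, where 3.26% of all pig genes were (2.17% lower). With 0 reads in the oocyte, ANXA4 passed the minimum only through the 2-4 cell embryo and could not have been called lower. The last step was 59.9-fold in cow (16.5 to 496) and 10.5-fold in pig (6.78 to 17.0).

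ANXA5, which binds the phosphatidylserine exposed on dying cells and is used as a stain for them, was the exception. In cow (chromosome 6, 3542635 to 3575330) it had 30.02, 44.4, 11.2, 26.2 and 51.8 RPM (48.2 to 55.7). The blastocyst and the 2-4 cell embryo overlapped in their intervals, and the lowest library was the 8-16 cell embryo, 3.95-fold below the 2-4 cell embryo. From morula to blastocyst it was 1.98-fold higher (1.61 to 2.46) and from oocyte to blastocyst 1.73-fold (1.45 to 2.07), differences of 0.96 and 0.77 that were not called. In pig (chromosome 8, 102387828 to 102421352) ANXA5 had 19.8, 8.22, 13.9, 6.66 and 71.0 RPM (62.99 to 80.1). The morula to blastocyst step was 10.7-fold (6.77 to 17.7) and called, at 3.23, while the difference from the oocyte was 1.79 and not called.

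**Figure D2:**
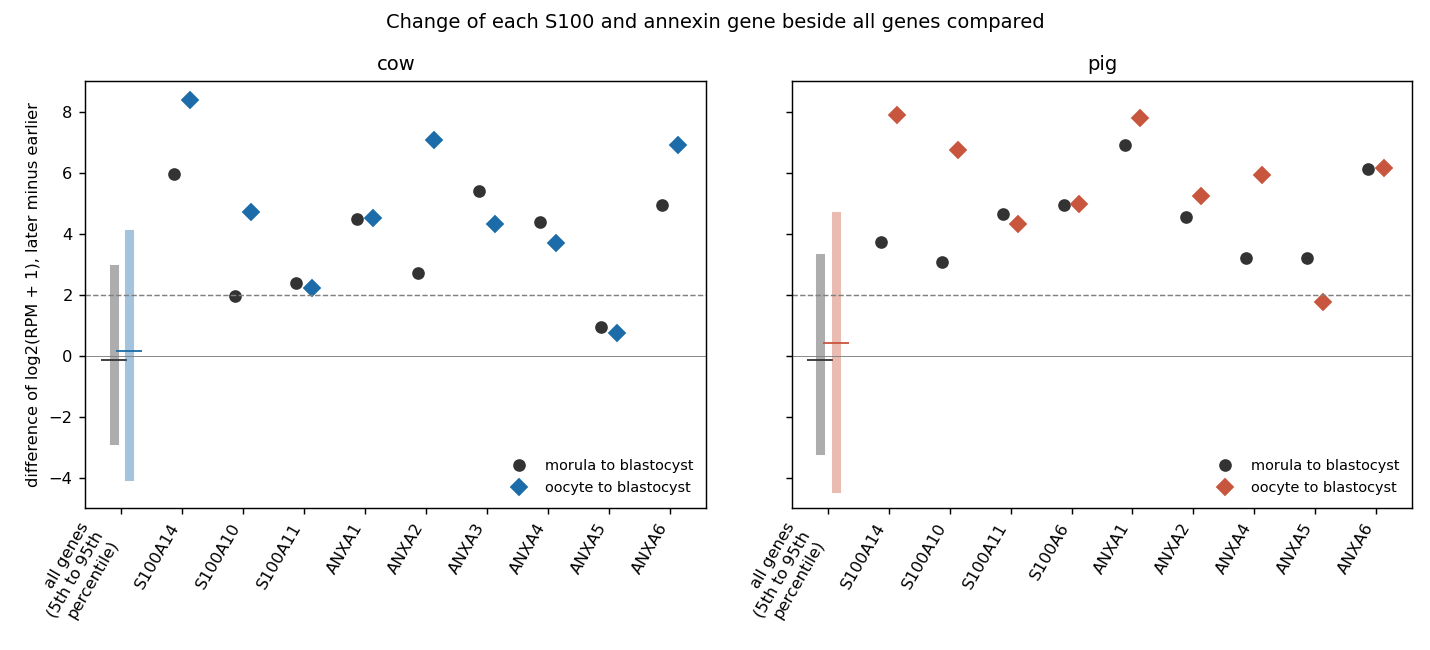
Difference of log2(RPM + 1) from morula to blastocyst (dark circles) and from oocyte to blastocyst (coloured diamonds) for each gene, with bars for the 5th to 95th percentile and a line for the median of all genes compared, and a dashed line at the call of 2. In cow ANXA5 lies below the line at 0.96 and 0.77 and S100A10 touches it at 1.98; in pig only the oocyte to blastocyst value of ANXA5, 1.79, lies below.

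By step, few of the genes were called higher before the 8-16 cell embryo. In cow 0 of 5 genes compared were called higher from oocyte to 2-4 cell embryo (0.196% of all genes were, and 0.178% lower) and 0 of 5 from there to the 8-16 cell embryo (12.6%, and 14.6% lower). From the 8-16 cell embryo to the morula 3 of 5 were, against 6.67% of all genes (5.15% lower), and these were S100A14, ANXA2 and ANXA6. S100A14 and ANXA6 had 0 reads in the 8-16 cell embryo and passed the minimum of 1 RPM only through the morula. In pig 1 of 4 genes, ANXA4 at 3.31, was called higher from oocyte to 2-4 cell embryo (3.26%, and 2.17% lower). From the 2-4 to the 8-16 cell embryo 0 of 7 pig genes were called higher (4.33%, and 0.543% lower). From there to the morula 2 of 7 were, S100A14 and S100A10 (12%, and 11.3% lower). None of the genes was called lower at any step. The step into the blastocyst was the largest rise for 7 of 9 genes in cow and 8 of 9 in pig. The exceptions were ANXA2 and ANXA5 in cow, whose largest rise led to the morula, and ANXA4 in pig, whose largest rise led to the 2-4 cell embryo. In cow ANXA5 the fall from the 2-4 to the 8-16 cell embryo, -1.89, exceeded that rise of 1.15. In the oocyte 2 of 9 cow genes and 6 of 9 pig genes had 0 reads.

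**Figure D3:**
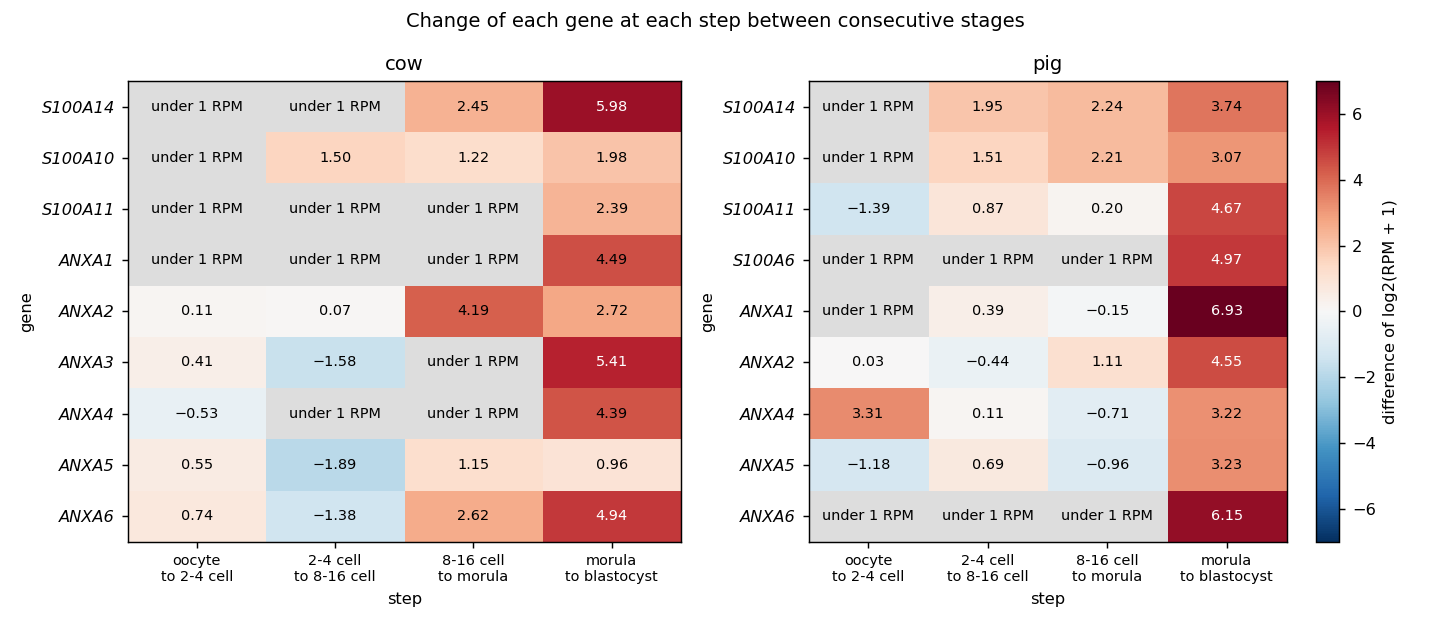
Difference of log2(RPM + 1) at each of the 4 steps between consecutive stages (columns) for each gene (rows), with grey cells where both libraries were under 1 RPM. The dark cells fall in the morula to blastocyst column in both species; cow ANXA2 has 4.19 one column earlier, and pig ANXA4 has 3.31 in the first column.

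The cow and pig tables were scaled separately, so only changes within a species are set beside each other. Ratios were compared only for genes with more than 3 reads in each of the libraries concerned, since a fold against 0 to 3 reads is a bound or has a very wide interval. From oocyte to blastocyst this left 2 genes. The ratio of ANXA2 was larger in cow, 188-fold (110 to 353) against 40.3-fold (30.8 to 53.6) in pig, and that of ANXA5 larger in pig, 3.58-fold (2.73 to 4.76) against 1.73-fold (1.45 to 2.07). Between morula and blastocyst 4 genes were left, and the intervals lay apart for 3 of them. S100A14 had the larger ratio in cow, and ANXA2 and ANXA5 had the larger one in pig, by the values given above. The S100A10 intervals, 2.95 to 6.69 in cow and 6.58 to 12.3 in pig, overlapped. These intervals hold counting error alone, and a difference between the species was not tested over replicates.

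S100A14, S100A10 and S100A11 lie on cow chromosome 3 and pig chromosome 4 in the S100A cluster, which is described here after its values were seen. In cow the rows from the first to the last S100A gene spanned 2.00 Mb (16812602 to 18810545) and held 14 S100A genes and 20 other rows. The S100A genes lay at the ends of this span, with S100A11 and S100A10 apart from the rest. From oocyte to blastocyst 6 of the S100A genes could be compared and 6 were called higher, beside 21.8% of all genes. Of these 6, 5 were under 1 RPM in the oocyte and passed the minimum only through the blastocyst, so they could not have been called lower, and nothing is read from the count. Between morula and blastocyst 4 of 7 were called higher and 1, S100A4, lower, where 11.9% and 11.5% of all genes were. S100A11 and S100A16 passed the minimum only through the blastocyst, and S100A4 only through the morula. The 6 genes included S100A16 (2.03 to 110 RPM), the next gene beside S100A14, S100A2 (0 reads to 81.1 RPM) and S100A5 (0 reads to 41.9 RPM). Of the 20 other rows, 3 could be compared, 1 called higher and 1 lower, and the remainder were under 1 RPM in both libraries.

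In pig the span was 1.26 Mb (96012005 to 97275019), with 12 S100A genes and 27 other rows. Of 7 S100A genes compared from oocyte to blastocyst 4 were called higher, beside 26.0% of all genes, and these were the 4 described above. Of the 7, 6 had 0 reads in the oocyte and passed the minimum only through the blastocyst. S100A13 reached 2.95 RPM from 0 reads and was not called. Beside S100A14, 2.93 kb from its start and on the same strand, lay a row with an identifier and no symbol, ENSSSCG00000006581 (96030569 to 96041858), with 0.888 RPM in the oocyte, 3.33 RPM in the morula and 190 RPM (176 to 204) in the blastocyst. Its difference from oocyte to blastocyst was 6.66. The cow table has S100A16 next to S100A14, but the pig table does not name this row and no name is given to it here.

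**Figure D4:**
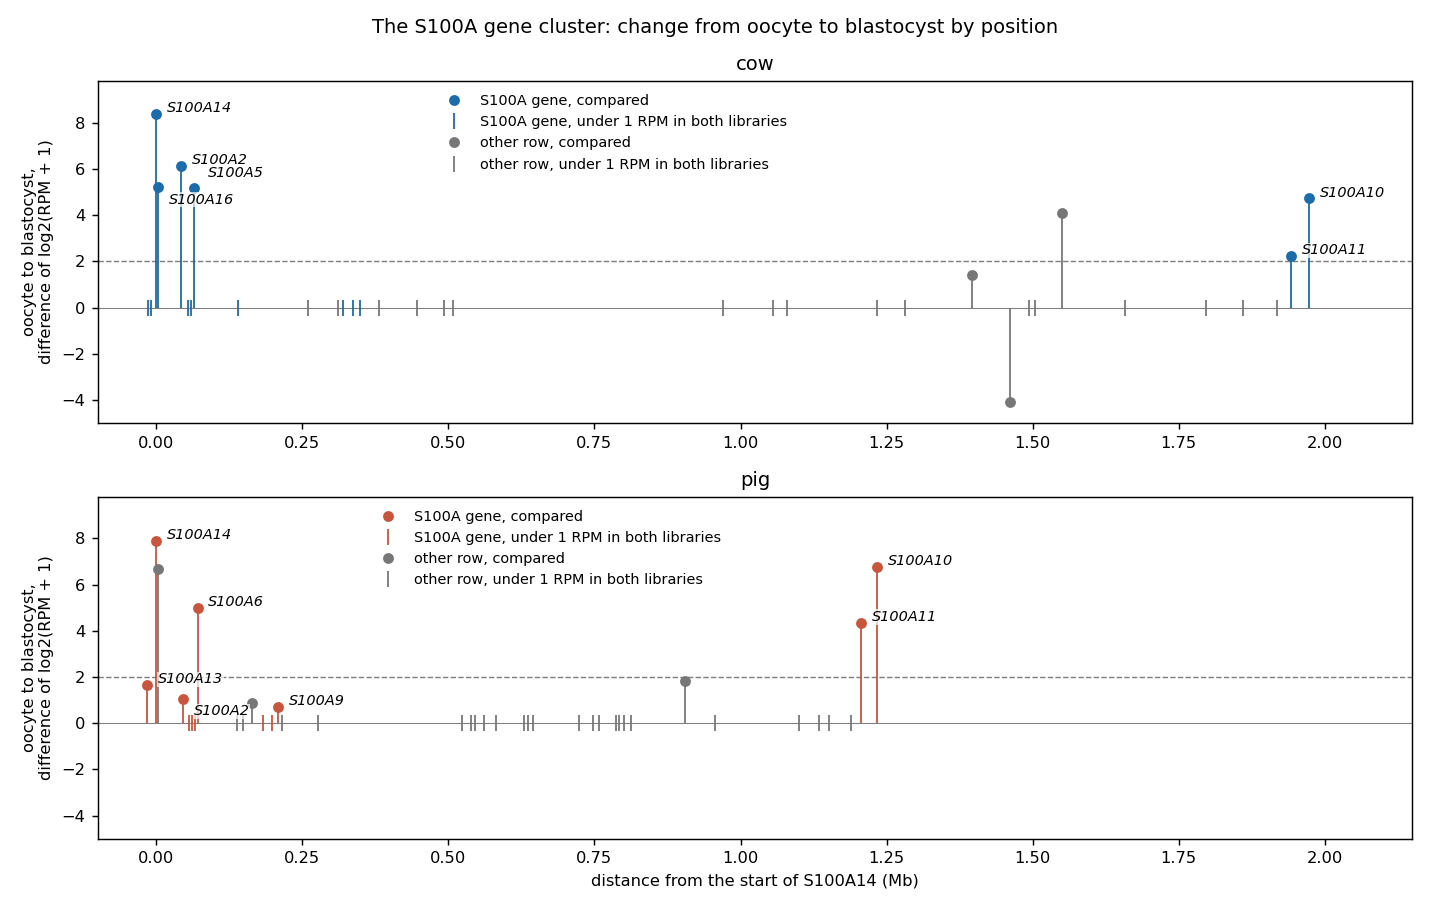
Difference of log2(RPM + 1) from oocyte to blastocyst for the rows of the S100A cluster, by distance in Mb from the start of S100A14, with S100A genes in colour, other rows in grey and ticks for rows under 1 RPM in both libraries. Stems of S100A genes stand at both ends of the span and most rows between them are ticks; the tall grey stem in pig, at 6.66, is the row without a symbol.

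Outside the 10 genes the families were uneven. Of 15 other S100 genes 14 were analysed in cow. From oocyte to blastocyst 4 were compared, having 1 RPM or more in at least 1 of both libraries. S100A2, S100A5 and S100A16 were called higher, where 21.8% of all genes were (18.4% lower). S100A2 and S100A5 had 0 reads in the oocyte and passed the minimum only through the blastocyst, so they could not have been called lower. S100B, a calcium sensor of glia and other cells, was called lower, from 24.1 RPM in the oocyte and 38.5 RPM in the 2-4 cell embryo to 1.41 RPM. Of 5 compared from morula to blastocyst, S100A5 and S100A16 were called higher and S100A4 lower, where 11.9% and 11.5% of all genes were. S100A4 had 8.46 RPM in the morula and 0.423 RPM in the blastocyst. In pig 10 were analysed, 3 could be compared, and none was called in either direction. S100A7, S100A8, S100A9 and S100A12, which mark inflamed skin and myeloid cells, had 0 reads in the cow blastocyst. In the pig blastocyst S100A8 and S100A12 had 0 reads and S100A9 had 4 (1.07 RPM).

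Of 7 other annexins 6 were analysed in cow. From morula to blastocyst the 3 that could be compared were called higher, where 11.9% of all genes were (11.5% lower). With 3 genes compared, the count describes these genes only, and ANXA8 had 9 reads in the morula. ANXA8 went from 0 reads in the oocyte to 2.31 RPM in the morula and 73.3 RPM in the blastocyst. ANXA11, the binding partner of S100A6, had 15.4 RPM in the oocyte, 7.44 RPM in the morula and 44.1 RPM in the blastocyst, and ANXA7 had 21.5, 5.64 and 29.97 RPM. Both thus dipped and returned, and neither was called between oocyte and blastocyst, as with ANXA5. In pig 5 were analysed. Of 4 compared from morula to blastocyst, ANXA11 (3.66 to 53.1 RPM) and ANXA13 (0 reads to 5.36 RPM) were called higher. At that step 13.8% of all genes were called higher and 13.8% lower. Of 5 compared from oocyte to blastocyst, ANXA13 (0 reads to 5.36 RPM) was called higher and ANXA10 (8.88 RPM to 0 reads) lower. Of all genes 26.0% were called higher there and 19.2% lower. Pig ANXA7 (33.8 to 10.2 RPM) and ANXA9 (11.5 to 31.1 RPM) were not called between oocyte and blastocyst.

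Genes on a list of 34 binding partners, receptors and calcium-dependent repair proteins of these families were called in both directions, as genes were in general. In cow 7 of 27 genes compared were called higher from oocyte to blastocyst and 4 lower, and the list median was 0.28 against 0.18 over all genes. In pig 7 of 22 were called higher and 1 lower, with a median of 1.23 against 0.43. Of all genes 21.8% were called higher and 18.4% lower in cow, and 26.0% and 19.2% in pig. A departure of the list from these shares was not tested. PLAU, the urokinase that makes plasmin at the cell surface, went from 1 read in the cow oocyte (0.203 RPM) to 95.5 RPM in the blastocyst, and from 0 reads to 7.78 RPM in pig. Its receptor PLAUR took the other direction in cow, from 20.5 RPM to 0 reads, a difference of -4.34.

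CAPNS1, the small subunit of the calpains that cut membrane-repair proteins, had 7.51 RPM in the cow oocyte and 269 RPM in the blastocyst, and 19.5 and 155 RPM in pig. CHMP4B, a subunit of the ESCRT-III filaments that seal membranes, had a difference of 3.24 in pig, from 8.59 to 89.8 RPM. RASA1, which ANXA6 recruits, was called lower in both species. Its cow level was 1060 RPM in the oocyte and 128 RPM in the blastocyst, and its pig levels were 534 and 50.1 RPM. The levels of ANXA6 and RASA1 thus moved in opposite directions from oocyte to blastocyst. DLG5, a polarity scaffold on this list, was called lower in cow at -2.74. In pig no gene besides RASA1 was called lower, and the next lowest differences were -1.66 for sorcin (SRI), a calcium-binding protein, and -1.60 for SYTL4, a granule-docking protein.

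Markers of cell types were read beside these genes, and their part in the result was not tested. Summed over the 9 genes the level was 37.1 RPM in the cow oocyte, 52.9 in the 2-4 cell embryo, 16.9 in the 8-16 cell embryo, 120 in the morula and 1312 RPM in the blastocyst. The pig sums were 44.7, 40.6, 52.4, 85.9 and 1849 RPM. Trophectoderm markers moved with them. Their sum was 242 RPM in the cow morula and 4326 RPM in the blastocyst, and 604 and 10694 RPM in pig, with 8 of 11 and 9 of 11 markers called higher at that step. KRT8, a keratin of simple epithelia, had 0.513 RPM in the cow morula and 1490 RPM in the blastocyst, and 0.333 and 3629 RPM in pig. Its partner KRT18 had 0.769 and 1021 RPM in cow and 4.66 and 2681 RPM in pig. GATA3, a trophoblast transcription factor, had 1.28 and 78.8 RPM in cow and 0.999 and 173 RPM in pig. CDX2, the trophectoderm factor, was analysed in pig only and went from 0 reads to 8.85 RPM. ATP1B1, a sodium pump subunit on the same list, was lower in the cow blastocyst (5.99 RPM) than in the oocyte (105 RPM).

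The other lineages of the blastocyst were read within each species. The 6 inner cell mass markers analysed in cow summed to 331 RPM in the morula and 211 RPM in the blastocyst, and the 4 analysed in pig, which do not include KLF4 and POU5F1, to 38.3 and 3.75 RPM. NANOG, a pluripotency factor, had 76.4 and 14.5 RPM in the cow libraries and 2.66 RPM and 0 reads in the pig libraries. It was the only 1 of 6 cow markers called at this step. Cow SOX2 (14.9 to 27.3 RPM) and POU5F1 (17.4 to 42.4 RPM) were higher in the blastocyst without a call. KLF4, LIN28B and PRDM14 were lower there without a call. In the pig blastocyst NANOG, SOX2 and PRDM14 were at 0 reads, which are 3 of the 4 inner cell mass markers analysed in pig. Primitive endoderm markers summed to 423 and 5403 RPM in the cow morula and blastocyst, and this rise was mostly FN1, the gene of fibronectin, with 56.4 and 4843 RPM. Without FN1 the cow sums were 367 and 561 RPM. The pig sums were 254 and 325 RPM, with 2 of 5 compared, HNF4A and FN1, called higher. SOX17 had 0 reads at every pig stage. In cow SOX17 was at 0.282 RPM in the blastocyst.

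Oocyte markers fell from a sum of 6558 RPM to 0.353 RPM over the cow stages, with 10 of 10 called lower, and from 7901 to 22.3 RPM in pig, with 9 of 9. Cumulus and granulosa markers, read for maternal cells still attached, summed to between 18.0 and 185 RPM in cow, highest in the oocyte. The cow oocyte sum was mostly HAS2, with 141 RPM, while AMH, INHA and FOXL2 had 0 reads there. In pig the sum lay between 4.00 and 22.3 RPM and was highest in the blastocyst. The blastocyst sums, 72.7 RPM in cow and 22.3 RPM in pig, were mostly CYP19A1, the aromatase, with 48.8 and 20.4 RPM. FSHR had 23.8 RPM in the cow blastocyst and 0.536 RPM in the pig blastocyst. The presence of attached cells was not tested. Blood and stroma markers summed to 3.45, 2.03, 12.5, 11.8 and 82.1 RPM over the cow stages. In cow LYZ, COL1A2 and PECAM1 were called higher from morula to blastocyst, PTPRC and COL1A1 were at 1.55 and 0.635 RPM in the blastocyst, and VIM, HBB and COL3A1 were at 0 reads. In pig the sum lay between 12.3 and 21.8 RPM over the stages and was 13.4 RPM in the blastocyst, none of 4 compared was called at the last step, and 6 of 8 were at 0 reads in the blastocyst, among them VIM and COL1A1.

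**Figure D5:**
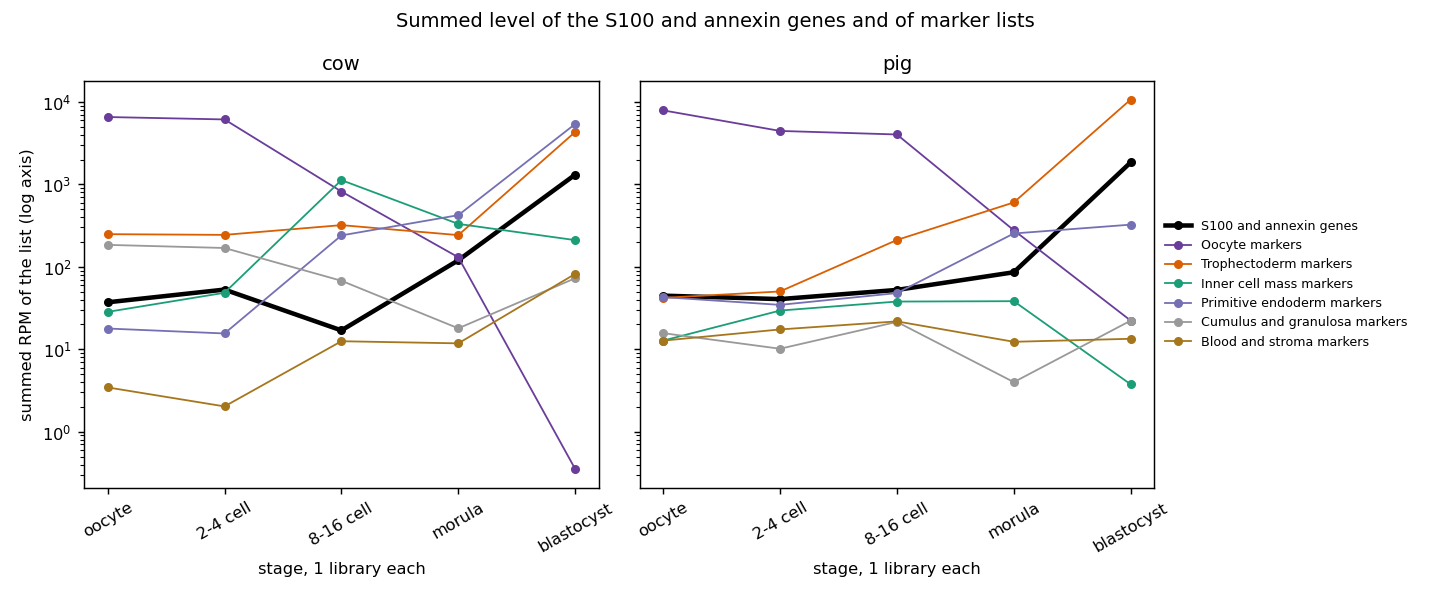
Summed RPM (log axis) of the S100 and annexin genes (thick black line) and of 6 lists of cell type markers at each stage, 1 library each. The black line ends at 1312 RPM in cow and 1849 RPM in pig and rises with the trophectoderm line in the last step of both species; the cow primitive endoderm line also rises, mostly through FN1 (367 to 561 RPM without it), and the inner cell mass line drops to 3.75 RPM in pig.

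For each of the 8 shared genes the most similar profiles were sought among 9689 symbols with at least 1 RPM in both species, by Euclidean distance of log2(RPM + 1) centred per species over the 10 libraries. None of the 3 nearest symbols of any gene was another of the 8. S100A14 lay nearest to SLC1A3 (distance 2.38), TPM4 (2.52) and LPP (2.65). S100A10 lay nearest to VAMP8 (1.23), COX5B (1.35) and NDUFV1 (1.49), and S100A11 to PAGE4 (1.09), DHCR7 (1.18) and ALDOA (1.20). Among annexins, ANXA1 lay nearest to ACTB (1.26), LAMA1 (1.34) and ST14 (1.71), and ANXA6 to ITGA5 (1.16), CAPG (1.77) and ACTG1 (1.83). ANXA2 lay nearest to CLDN6 (1.67), DSG3 (2.13) and PEPD (2.17). ANXA4 lay nearest to SGIP1 (1.86), ATP6V0B (2.25) and RNF43 (2.29), and ANXA5 to VPS28 (0.850), CMBL (1.11) and ATP6V0D1 (1.12).

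As values only, the distance between S100A10 and ANXA2 was 3.92 and that between S100A11 and ANXA1 was 3.18. The nearest pair among the 8 was ANXA2 and ANXA6, at 2.60, and the farthest S100A14 and ANXA5, at 8.47. The profiles share the 10 libraries, their depth and the rise of the blastocyst, and the distances describe these libraries.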

How the data were processed

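RNA sequencing libraries of oocytes and embryos of cow and pig were analysed from 1 table per species. Per the labels' protocols, RNA was isolated with a PicoPure kit, amplified with an Ovation kit for low input and made into libraries with 8 PCR cycles. Trim Galore 0.6.4, HISAT2 2.1.0 and the builds UMD3.1 (cow) and Sscrofa11.1 (pig) are named in the submitters' processing notes; the counting tool, the annotation and the use of strand are not given in the sources used here. Without strand, reads of a gene and an antisense partner cannot be told apart.

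The values the authors deposited are on a log2 scale, as reads per 1000000 library reads (RPM), worked out from the values: in each column they are whole multiples of 1 read (tolerance 0.01%), and 0 reads is written as 0.9 of a read. Read numbers and library totals of 3002751 to 14182046 reads were computed back from them. Python 3.11.15, numpy 2.4.6, pandas 2.3.3 and scipy 1.17.1 gave differences of log2(RPM + 1) with 0 reads as deposited, for genes with at least 1 RPM in 1 of both libraries, called at 2. RPM intervals are 95% Wilson intervals, ratio intervals are exact (Clopper-Pearson, conditional on the reads of both libraries), and the limit for 0 reads is 3 reads per library. The steps were tested on simulated data. With 1 library per group, stages could not be tested against replicates, and no test of stages was run.

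The 10 genes and the gene lists were chosen with earlier results of these data known. The text names the 10 genes in full, other S100 and annexin genes with at least 10 RPM in a library, the 3 partners with the highest and the lowest difference from oocyte to blastocyst in each species, set cell type markers and the 3 nearest profiles; S100A4, S100A13, ANXA10, ANXA13, FN1 and rows of the S100A cluster were added after their values were seen. Other pseudocounts, scalings, call sizes and the handling of 0 reads and repeated symbols were tried as alternatives. No sequence is printed.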

Additional observations from a re-analysis of the deposited data

Results flagged for a closer look

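ANXA5 moved in opposite directions in the 2 species at steps before the blastocyst. From oocyte to 2-4 cell embryo its difference of log2(RPM + 1) was 0.55 in cow (30.02 to 44.4 RPM) and -1.18 in pig (19.8 to 8.22 RPM), 1.73 apart. From the 8-16 cell embryo to the morula it was 1.15 in cow (11.2 to 26.2 RPM) and -0.96 in pig (13.9 to 6.66 RPM), 2.11 apart. At these 2 steps the level moved up in cow and down in pig beyond counting error. The pig fall into the morula did so narrowly, with 44 and 20 reads and a counting interval of -1.89 to -0.008. Over all genes the median from oocyte to 2-4 cell embryo was 0.27 in cow and -0.14 in pig. From the 8-16 cell embryo to the morula it was 0.07 and 0.18. These steps were not recomputed under the alternatives. At the step between them, from the 2-4 to the 8-16 cell embryo, the directions were the reverse, -1.89 in cow and 0.69 in pig (8.22 to 13.9 RPM, with pig intervals that overlapped). None of these steps passed the call of 2. The difference between the species was not tested, since each stage had 1 library.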

How the results depend on the processing

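Each change of a gene from oocyte or morula to blastocyst was recomputed under 7 alternatives, of which taking 0 reads as 0 RPM was chosen after seeing the data. Of 252 values, 0 changed sign, 51 moved by more than their counting interval and 7 crossed the call of 2. These were cow S100A11 from oocyte (0.97 with a pseudocount of 5 RPM, 1.88 after quantile normalisation) and from morula (1.01 with 5 RPM), and cow S100A10 from morula (2.05 with 0.5 RPM, 2.31 scaled to non-mitochondrial reads, 2.1003 with median-of-ratios scaling, 2.00 after quantile normalisation). The number of genes called higher ranged from 7 to 8 (cow) and 8 to 9 (pig) from oocyte, and from 5 to 8 (cow) and at 9 (pig) from morula. The count of all genes called higher or lower between oocyte and blastocyst, 5122 in cow, became 2931 with a pseudocount of 5 RPM, 8973 at a call of 1 and 2681 at a call of 3; in pig 5650 became 3538, 9075 and 3233. From morula to blastocyst it was 2963 in cow and became 1242, 7199 and 1032, and in pig 3471 and became 1717, 7518 and 1454. Scaling moved the median of all genes from oocyte to blastocyst from 0.18 to 0.59 in cow without mitochondrial reads. After quantile normalisation it was -0.02 in cow, and in pig it went from 0.43 to 0.02. The cow median from morula to blastocyst, -0.11, became 0.17 without mitochondrial reads and 0.05 with median-of-ratios scaling. The sign of the cow medians thus depended on the scaling. No paired analysis was possible because each stage had 1 library, and for the same reason none could be left out. Depth limits genes at 3 reads or fewer, 0.999 RPM in the shallowest library.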
